A study of Homo sapiens with 4 samples.

Results

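The complement and coagulation factors are plasma proteins that the liver makes, together with a few membrane proteins that hold them in check. Their transcripts were examined here in the human hepatocellular carcinoma line PLC/PRF/5, with and without knockdown of USP22, a ubiquitin-specific protease of the SAGA coactivator complex. The set was a list of 54 gene symbols, matched to the gene column of the count table. Of these, 45 had a row among the 12154 genes of the table, and where a gene had several mRNA rows the row with the highest summed count was taken. The genes F10, C4BPB, C6, C8B, C9, CFD, CD46, CD55 and CD59 were not analysed here.

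The study held 4 libraries, 2 of control cells (labelled NC) and 2 of cells with lentivirus-mediated USP22 interference (labelled shUSP22). Both groups were grown in high-glucose DMEM. For 48 h they were held under hypoxia (1% oxygen with 5% carbon dioxide), which the controls thus shared, and the effect of hypoxia itself could not be read. The labels do not say that libraries of a group came from separate cultures, and the p-values therefore measure a spread that may be technical. They also do not say how many hairpins or clones were used.

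Blood clotting is a chain of proteases, most of them made by hepatocytes, that ends with thrombin cutting fibrinogen into fibrin. Protease inhibitors and the protein C system restrain the chain, and plasmin dissolves the clot. Complement is a second protease cascade, started by antibody complexes, by lectins or by spontaneous turnover of C3, and it ends in a pore built from C5 to C9. Several of these genes are acute-phase genes, driven in liver by interleukin-6 and by factors such as C/EBP proteins.

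The region before the start is shown for the 3 fibrinogen genes, whose transcripts moved together, and for F13B, the tested clotting factor with the largest change. Sequences are those of RefSeq on GRCh38.p14, cover the 250 bases before the start and read 5′ to 3′ on the strand of the gene. Capitals mark TTNCNNAA, the letters of the C/EBP type (TTNNGNAA on the other strand), and CTGGGAA, an element of the interleukin-6 response type. FGA lies on the minus strand at chr4:154590743-154590992, FGB on the plus strand at chr4:154562730-154562979 and FGG on the minus strand at chr4:154612657-154612906. F13B lies on the minus strand at chr1:197067261-197067510.
FGA: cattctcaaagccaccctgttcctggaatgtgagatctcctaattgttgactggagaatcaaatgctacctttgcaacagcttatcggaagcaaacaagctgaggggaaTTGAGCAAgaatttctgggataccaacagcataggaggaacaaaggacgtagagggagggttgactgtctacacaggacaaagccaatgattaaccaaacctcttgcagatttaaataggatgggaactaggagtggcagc
FGB: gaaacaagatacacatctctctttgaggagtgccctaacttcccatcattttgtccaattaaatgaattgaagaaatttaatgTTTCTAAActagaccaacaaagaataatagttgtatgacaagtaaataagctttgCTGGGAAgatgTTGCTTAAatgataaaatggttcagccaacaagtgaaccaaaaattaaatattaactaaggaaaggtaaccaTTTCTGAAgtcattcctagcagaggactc
FGG: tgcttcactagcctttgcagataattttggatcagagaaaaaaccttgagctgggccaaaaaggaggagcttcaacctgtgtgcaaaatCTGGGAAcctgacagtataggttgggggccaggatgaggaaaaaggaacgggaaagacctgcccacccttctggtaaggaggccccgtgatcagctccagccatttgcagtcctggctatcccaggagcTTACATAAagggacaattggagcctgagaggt
F13B: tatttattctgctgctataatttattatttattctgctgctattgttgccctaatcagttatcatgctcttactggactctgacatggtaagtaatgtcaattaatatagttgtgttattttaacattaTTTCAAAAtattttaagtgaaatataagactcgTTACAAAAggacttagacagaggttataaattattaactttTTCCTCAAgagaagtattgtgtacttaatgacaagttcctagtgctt

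TTNCNNAA was found once in FGA, at -141 to -134 counted back from the start, and once in FGG, at -32 to -25. FGB held it at -167 to -160, -101 to -94 and -29 to -22, and F13B at -121 to -114, -88 to -81 and -47 to -40. CTGGGAA lay at -112 to -106 in FGB and at -161 to -155 in FGG. Promoters were in the table for 34 of the 45 genes, of which 31 had a tested transcript. TTNCNNAA stood in 19 of these 31 windows and in 33.2% of all 35116 promoters searched over the same length and on both strands. By the test described below, it was in 9 of 10 windows of genes that rose (F5 being the exception). It was in 0 of 2 of genes that fell (F3 and C2) and in 10 of 19 of the others. C3 and SERPINC1, which fell, and C8G, which rose, had no promoter in the table and were not searched. CTGGGAA was in 3 of 31 windows (FGB, FGG and MASP2) and in 9.15% of all. TTNNNGGAA, of the STAT3 type, was in 9 of 31 against 13.7%, and can overlap CTGGGAA and TTNCNNAA. The hypoxia response core ACGTG was in 2 of 31 (KNG1 and C2) against 18.5%, and TATAAA in 4 of 31 against 10.7%. No test was made of these shares, and a match is a description of the window only.

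**Figure D1:**
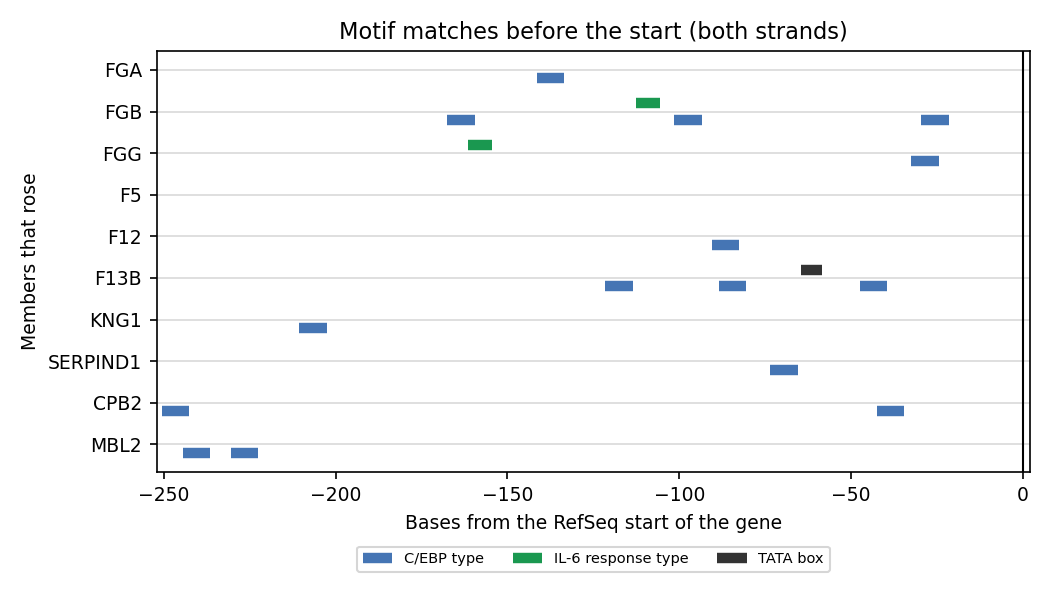
Motif matches in the 250 bases before the RefSeq start for the 10 genes of the set that rose and had a promoter in the table. The x axis is the distance from the start in bases. Each bar is a match of the C/EBP type, the interleukin-6 response type or TATAAA on either strand. Matches of the STAT3 type and of the hypoxia response core are not drawn. At least 1 C/EBP-type match lies in 9 of the 10 genes, with 3 each in FGB and F13B and none in F5.

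Levels are given as CPM, the count scaled by the TMM-normalized library size, in the order control 1, control 2, knockdown 1, knockdown 2. Changes are log2 fold changes of knockdown against control with their standard error (SE). They were tested with edgeR's quasi-likelihood test over all 12337 rows that passed a filter on low counts, with Benjamini-Hochberg adjustment and a threshold of 0.05. A gene rose or fell where it passed this test. The libraries held 15027209 to 17194929 counts, and the 45 transcripts took 1.14% to 1.31% of them. USP22 itself had 2937, 2573, 359.5 and 447 CPM, a fall by 2.77 ± 0.17 on the log2 scale (adjusted p = 1.36e-06). All 12 hepatocyte markers had a row, with a summed level of 32255 to 34308 CPM in control and 40199 to 48119 CPM in knockdown cells. APOB had 11626, 8796, 27525 and 16630 CPM. Without APOB the other 11 markers summed to 22682, 23459, 20593 and 23569 CPM, with overlapping groups. Most of this sum was TF (16362, 17025, 14063 and 15353 CPM) and AMBP (4821, 4880, 4626 and 6034 CPM). Of the 12 markers APOB, APOH, AFP and KRT18 (4) rose and 0 fell, against 9.08% and 11.1% of all genes. ALB, TF, TTR, APOA1 and SERPINA1 had log2 fold changes of -0.18, -0.18, -0.61, -0.11 and -0.10 and did not pass. KRT8, HNF4A and AMBP had 0.55, 2.73 and 0.14 and also did not pass. The HNF4A row, of a gene with 10 RefSeq accessions, had 1, 5, 23 and 18 counts. Of all 12 markers, 6 lay higher in knockdown cells without overlap and 2 lower, against 29.8% and 31.4% of all genes. The part of these markers in the results below was not tested. In bulk RNA, fewer cells of a type and less RNA per cell cannot be told apart.

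Of the 45 transcripts 42 passed the filter, and 11 of them rose, 4 fell and 27 did not pass the test. Over all 10778 genes tested, taken with 1 row each, 20.1% passed (9.08% rose and 11.1% fell), and over all 12337 rows 18.7% (8.49% and 10.2%). The coagulation and fibrinolysis genes made up 25 of the 42, with 9 that rose and 2 that fell, and a median log2 fold change of 0.74. The complement genes made up 17, with 2 that rose and 2 that fell, and a median of 0.01, against a median of -0.00 over all genes. Both knockdown libraries lay above both control libraries for 17 of the 25 coagulation transcripts and for 5 of the 17 complement transcripts, against 29.8% of all genes. They lay below for 2 of 25 and 4 of 17, against 31.4% of genes (29.3% and 30.3% of all rows were higher and lower without overlap). Without control replicate 1 the number that rose was 6, and without control replicate 2 the number that fell was 1. The coagulation genes that rose were FGA, FGB, FGG, F5, F12, F13B, KNG1, SERPIND1 and CPB2, and the complement genes MBL2 and C8G. Those that fell were F3, SERPINC1, C2 and C3. The difference between the coagulation and complement genes was not tested as such.

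**Figure D2:**
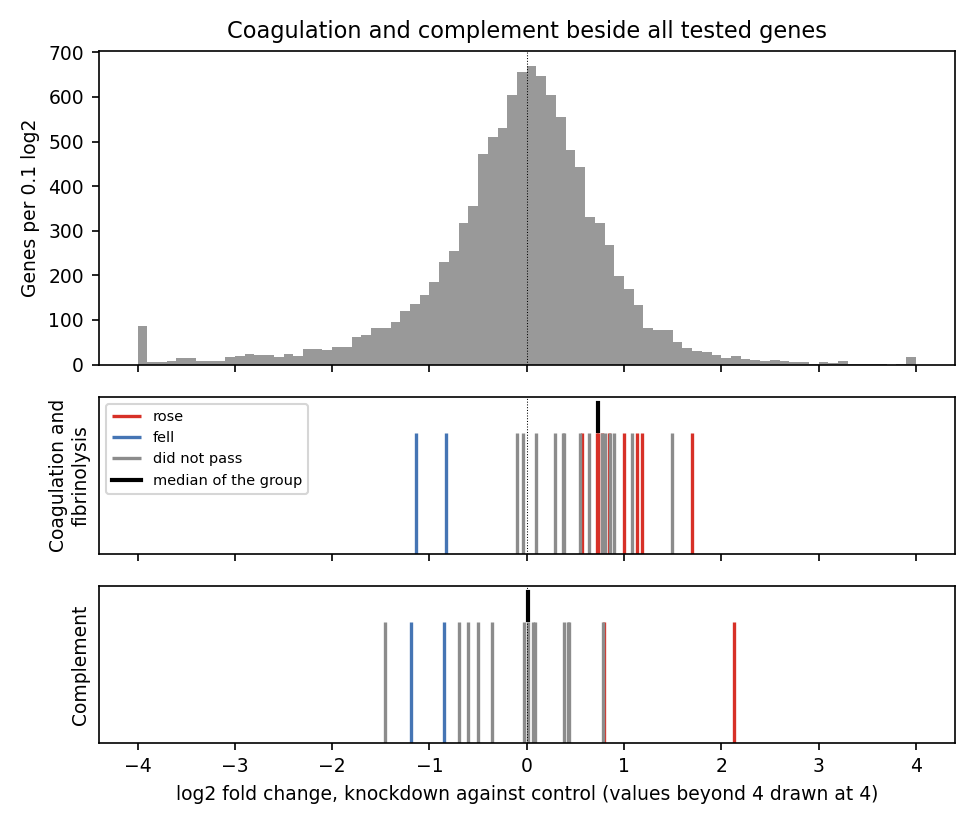
Log2 fold change of knockdown against control for all 10778 tested genes (top, genes per 0.1 log2) and, as single lines coloured by the test, for 25 coagulation and fibrinolysis transcripts (middle) and 17 complement transcripts (bottom); black bars are the medians. The coagulation median lies at 0.74 and the complement median at 0.01.

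All 3 chains of fibrinogen, the clotting protein that becomes fibrin, rose, by 1.80- to 2.28-fold. Secreted fibrinogen needs each of the chains. FGA, the alpha chain, had 649 and 639.8 CPM in control and 1247 and 1329 CPM in knockdown cells, a 2.00-fold rise (log2 fold change 1.00 ± 0.15, adjusted p = 0.000516). FGB, the beta chain, had 603 and 643 CPM against 1538 and 1297 CPM, a 2.28-fold rise (1.19 ± 0.15, adjusted p = 0.00023). FGG, the gamma chain, had 323 and 331 CPM against 654 and 522 CPM, a 1.80-fold rise (0.85 ± 0.16, adjusted p = 0.00319). The groups did not overlap for any chain, and the control libraries lay close together. Knockdown 1 was the higher knockdown library for FGB and FGG, and knockdown 2 for FGA. The 3 changes stayed past the threshold in each of the 10 alternative analyses, with adjusted p up to 0.00102 for FGA, 0.00021 for FGB and 0.0148 for FGG. FGL1, a fibrinogen-related liver protein that does not form clots, had 5.68, 7.85, 8.07 and 6.46 CPM and did not pass (0.10 ± 0.33, adjusted p = 0.874).

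FGA and FGG are each spliced in a pair of forms, and both forms were counted. The second FGA row, NM_000508.4, codes for the longer alpha-E chain and had 359 and 356 CPM in control against 852 and 726 CPM in knockdown cells. It rose with the main row, NM_021871.3 (log2 fold change 1.14 ± 0.16, adjusted p = 0.000329). It held 35.7% and 35.7% of what was counted for FGA in control libraries, against 40.6% and 35.3% after knockdown. The second FGG row, NM_021870.2, codes for the gamma-prime chain and had 70.8 and 65.5 CPM against 158 and 108 CPM (0.96 ± 0.20, adjusted p = 0.00531). Its share of FGG was 18.0% and 16.5% in control libraries, against 19.4% and 17.1% after knockdown. The shares of the groups overlapped for both genes. Counts per mRNA may leave out reads that forms of a gene share, so these shares are not molar ratios.

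Among 8 tested clotting factors, 4 rose, 1 fell and 3 did not pass, where 9.08% of all genes rose and 11.1% fell. F13B, the carrier subunit of the factor XIII that crosslinks fibrin, rose most, from 21.97 and 22.14 CPM to 69.9 and 73.1 CPM, a 3.24-fold rise (1.70 ± 0.20, adjusted p = 0.000102). Replicates differed little in either group, and the call held in all 10 alternatives (adjusted p up to 9.72e-05). F12, the contact factor, had 565 and 696 CPM against 806 and 1294 CPM (0.74 ± 0.21, adjusted p = 0.0248). Knockdown 2 stood far above knockdown 1, and without it the log2 fold change was 0.36 (adjusted p = 0.152), while without control 1 the adjusted p was 0.0919 (range over 10 alternatives 1.51e-10 to 0.152). The authors' deposited table gives F12 a q-value of 0.142, above the threshold. KNG1, the kininogen that carries contact factors and yields bradykinin, had 26.3 and 35.4 CPM against 49.8 and 55.7 CPM (0.77 ± 0.22, adjusted p = 0.0247). Without control 1 KNG1 did not pass (0.58, adjusted p = 0.244, range 0.000363 to 0.244).

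F5, the cofactor of factor Xa, rose by a smaller factor. It had 328 and 353 CPM in control and 501 and 506 CPM in knockdown cells, a 1.48-fold rise (0.57 ± 0.15, adjusted p = 0.0205). Leaving out control 1 or control 2 ended the call (adjusted p = 0.184 and 0.0745, range 0.000209 to 0.184). F3, tissue factor, is the membrane protein that starts clotting and went the other way. It had 6.76 and 8.22 CPM against 3.90 and 2.91 CPM, a 2.20-fold fall (-1.14 ± 0.36, adjusted p = 0.0415). The reads behind these values numbered 107, 133, 59 and 50. The F3 call was lost without control 2 (adjusted p = 0.153), without knockdown 2 (0.178) and in DESeq2 (0.0526), with a range of 0.0105 to 0.178.

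F2, prothrombin, is the zymogen of thrombin and had 54.2 and 65.1 CPM in control against 53.6 and 57.8 CPM in knockdown cells (-0.10 ± 0.19, adjusted p = 0.782). The groups overlapped. F11, an intrinsic pathway protease, had 9.60 and 14.8 CPM against 18.7 and 17.1 CPM and did not pass (0.55 ± 0.28, adjusted p = 0.199). F7, the partner of tissue factor, was near the limit with 12, 19, 12 and 27 counts. F9 was not tested, with 12, 1, 0 and 4 counts.

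**Figure D3:**
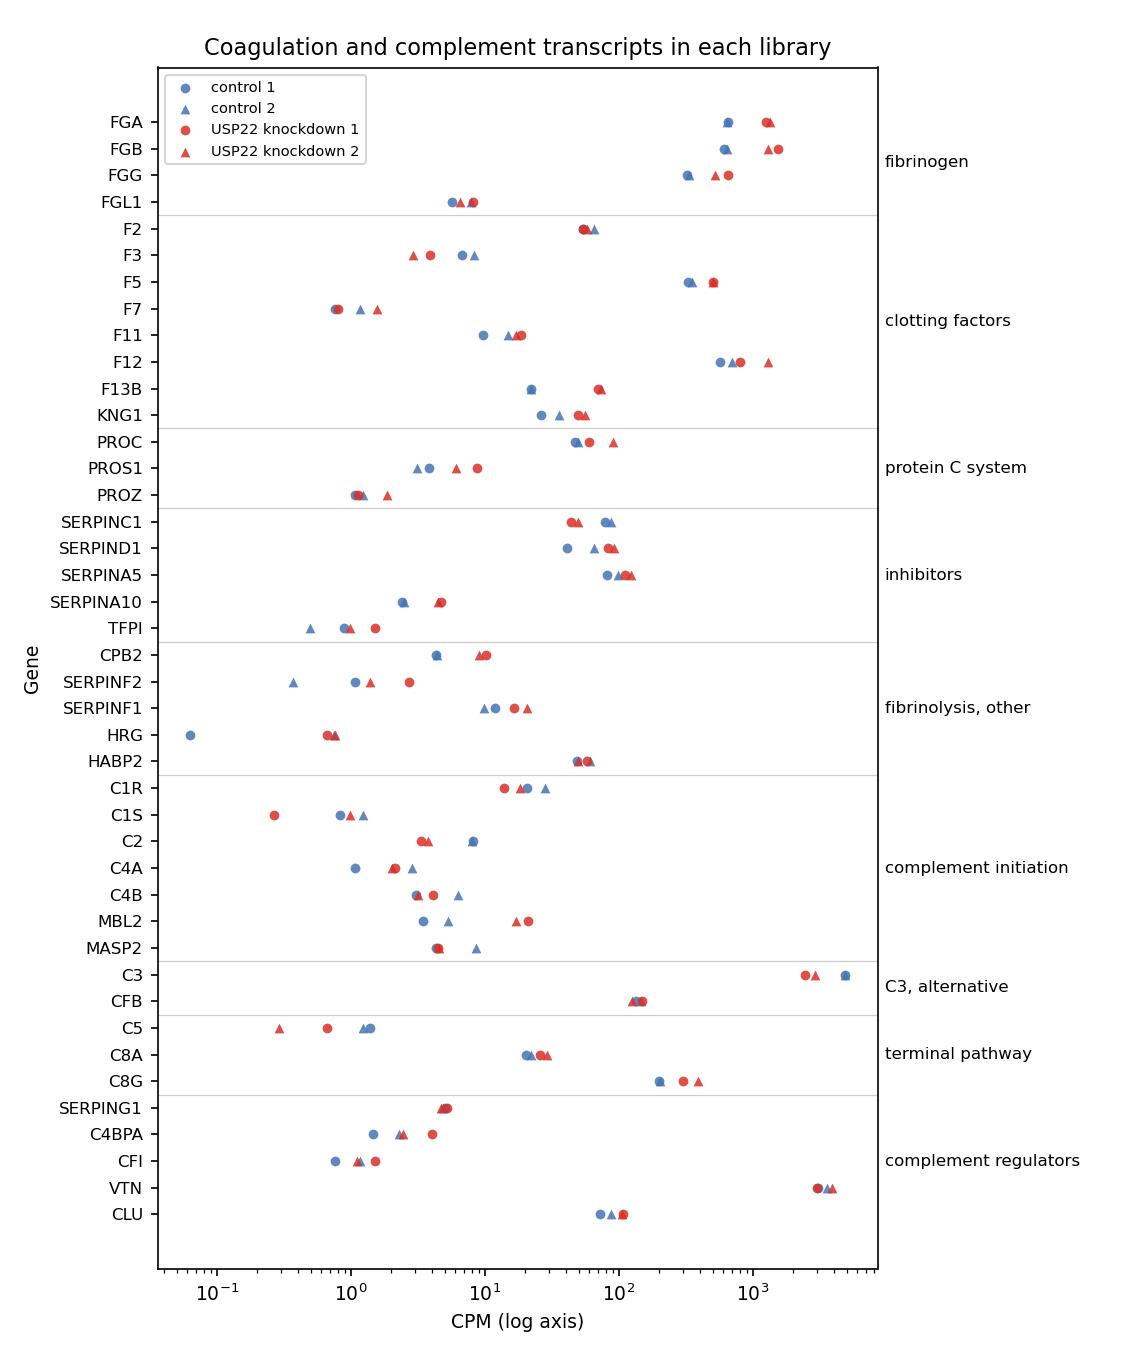
CPM of each of the 42 tested transcripts in the 4 libraries on a log axis, grouped by role; circles are replicate 1 and triangles replicate 2, blue is control and red USP22 knockdown. The libraries of the groups lie apart for the fibrinogen chains and F13B (knockdown higher) and for C3 and SERPINC1 (knockdown lower), and overlap for F2, CFB and VTN.

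The 3 genes of the protein C system and its vitamin K-dependent relatives did not pass. PROC, the zymogen of activated protein C, had 47.1 and 49.0 CPM against 60.0 and 89.9 CPM (0.64 ± 0.22, adjusted p = 0.055). Its log2 fold change was 0.33 without knockdown 2, the higher library, and 0.94 without knockdown 1. PROS1, its cofactor protein S, had 3.85 and 3.09 CPM against 8.73 and 6.06 CPM (1.09 ± 0.37, adjusted p = 0.0545). Both knockdown libraries were above both controls for each of them. In the fit with rows summed per gene, PROC and PROS1 passed (adjusted p = 0.045 and 0.0458). Each had a single row, so no counts were added, and log2 fold changes were 0.66 for PROC and 1.10 for PROS1. Their adjusted p over the 10 alternatives ranged from 0.000343 to 0.413 and from 0.0167 to 0.242. PROZ, protein Z, had 17, 20, 17 and 32 counts.

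The coagulation inhibitors did not move together. SERPINC1, antithrombin, the main inhibitor of thrombin and factor Xa, had 78.4 and 87.3 CPM in control and 44.2 and 49.0 CPM in knockdown cells, a 1.78-fold fall (-0.83 ± 0.19, adjusted p = 0.00764). The groups were well apart, and the call was lost without control 2 (-0.73, adjusted p = 0.0769, range 1.74e-05 to 0.0769). SERPIND1, heparin cofactor II, a second thrombin inhibitor, had 40.6 and 65.2 CPM against 82.8 and 91.4 CPM, a 1.65-fold rise (0.72 ± 0.22, adjusted p = 0.0397). The control libraries of SERPIND1 differed from each other, and without control 1 it did not pass (0.42, adjusted p = 0.391, range 8.53e-05 to 0.391). SERPINA5, the protein C inhibitor, had 81.8 and 97.7 CPM against 111 and 124 CPM and did not pass (0.38 ± 0.18, adjusted p = 0.159). SERPINA10, the inhibitor that acts with protein Z, had 2.40, 2.47, 4.69 and 4.43 CPM (0.90 ± 0.40, adjusted p = 0.143). TFPI, which blocks tissue factor, had 14, 8, 23 and 17 counts. The gene span of SERPIND1 overlaps that of PI4KA, and the span of SERPINC1 that of an uncharacterized long non-coding RNA. Exons were not compared. The library kit does not mark strand, so where exons overlap, reads of such pairs cannot be told apart.

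Of 5 tested genes of fibrinolysis and other plasma proteins, 1 rose, where 9.08% of all genes rose. CPB2 codes for TAFI, a carboxypeptidase that slows the lysis of fibrin, and had 4.29 and 4.39 CPM against 10.1 and 8.97 CPM, a 2.19-fold rise (1.13 ± 0.32, adjusted p = 0.0258). Its size was steady, from 1.08 to 1.23 over 10 alternatives, but the call was lost without control 1, control 2 or knockdown 1 (adjusted p = 0.0717, 0.0604 and 0.0561, range 0.00483 to 0.0717). CPB2 overlaps its antisense gene CPB2-AS1. SERPINF1, the secreted serpin PEDF, had 11.8 and 9.83 CPM against 16.4 and 20.6 CPM and did not pass (0.77 ± 0.27, adjusted p = 0.061). HABP2, a plasma protease that binds hyaluronan, had 48.9, 61.2, 57.7 and 49.5 CPM with overlapping groups (-0.04 ± 0.20, adjusted p = 0.923). SERPINF2, the plasmin inhibitor, and HRG, histidine-rich glycoprotein, had at most 41 and 13 counts in a library. PLG, plasminogen, had 2, 1, 6 and 29 counts and was not tested.

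C3, the protein on which all complement routes meet, fell. It had 4836 and 4821 CPM in control and 2461 and 2889.9 CPM in knockdown cells, a 1.80-fold fall (-0.85 ± 0.14, adjusted p = 0.0013). Its counts were 76599, 77965, 37230 and 49627, the highest of the set in control cells. The control libraries nearly coincided, both knockdown libraries were far below them, and the call held in all 10 alternatives (adjusted p up to 0.00168). CFB, the protease of the alternative pathway that pairs with C3b, had 133, 146, 149 and 124 CPM with overlapping groups (-0.03 ± 0.17, adjusted p = 0.928).

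Among 7 tested genes that start the classical and lectin pathways, 1 rose and 1 fell, where 9.08% of all genes rose and 11.1% fell. MBL2, the mannose-binding lectin, had the largest change among the 42 tested transcripts, from 3.47 and 5.26 CPM to 21.1 and 17.1 CPM, a 4.37-fold rise (2.13 ± 0.31, adjusted p = 0.000506). Its counts were 55, 85, 319 and 294, and it passed in all 10 alternatives with a log2 fold change of 1.86 to 2.47. C2, the protease of the classical C3 convertase, had 8.08 and 8.04 CPM against 3.31 and 3.73 CPM, a 2.29-fold fall (-1.19 ± 0.34, adjusted p = 0.0265). The fall of C2 missed the threshold without control 1, control 2 or knockdown 1 (adjusted p = 0.0547, 0.0582 and 0.0786, range 0.00547 to 0.0786), at nearly the same size. The gene overlaps ZBTB12 and C2-AS1. C1R, the first protease of the classical pathway, had 20.6 and 28.0 CPM against 13.8 and 18.1 CPM and did not pass (-0.61 ± 0.26, adjusted p = 0.128). MASP2, the protease that acts with MBL2, had 4.29, 8.53, 4.50 and 4.54 CPM, with control 2 standing above the rest (-0.50 ± 0.39, adjusted p = 0.413). C1S had at most 20 counts in a library. C4A and C4B are near-identical copies whose reads can be split either way, and neither passed (adjusted p = 0.945 and 0.622). MASP1 was not tested, with 9, 6, 0 and 1 counts.

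C8G, the gamma subunit of the C8 component of the pore, rose from 199 and 202 CPM to 303 and 389.8 CPM (0.79 ± 0.17, adjusted p = 0.0062). The call held in all 10 alternatives (adjusted p up to 0.0297). C8A, the alpha subunit of the same component, had 20.08 and 22.01 CPM against 25.8 and 29.2 CPM and did not pass (0.39 ± 0.23, adjusted p = 0.268). C5 had 22, 20, 10 and 5 counts and did not pass (-1.46 ± 0.78, adjusted p = 0.218). Its second row had 0, 10, 11 and 3 counts and was not tested. With both rows of C5 summed, the log2 fold change was -0.80 (adjusted p = 0.464).

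None of the 5 tested complement regulators passed edgeR's test (adjusted p of 0.12 or more), and 1 of the 5, CLU, had an unadjusted p under 0.05, against 33.5% of all genes. VTN, vitronectin, which keeps the pore from membranes, was among the most abundant transcripts with 3036, 3562, 3005 and 3881 CPM (0.06 ± 0.16, adjusted p = 0.837). CLU, clusterin, which acts on the same step, had 71.9 and 86.6 CPM against 107 and 106 CPM (0.42 ± 0.18, adjusted p = 0.12). Its groups did not overlap, and the authors' deposited table gives it a q-value of 0.0272. SERPING1, the C1 inhibitor, had 4.99, 4.82, 5.22 and 4.66 CPM, with an adjusted p of 0.99. C4BPA, which dismantles the classical convertase, and CFI, which cleaves C3b, had at most 61 and 23 counts in a library. The CFI row is from a gene with 15 RefSeq accessions.

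**Figure D4:**
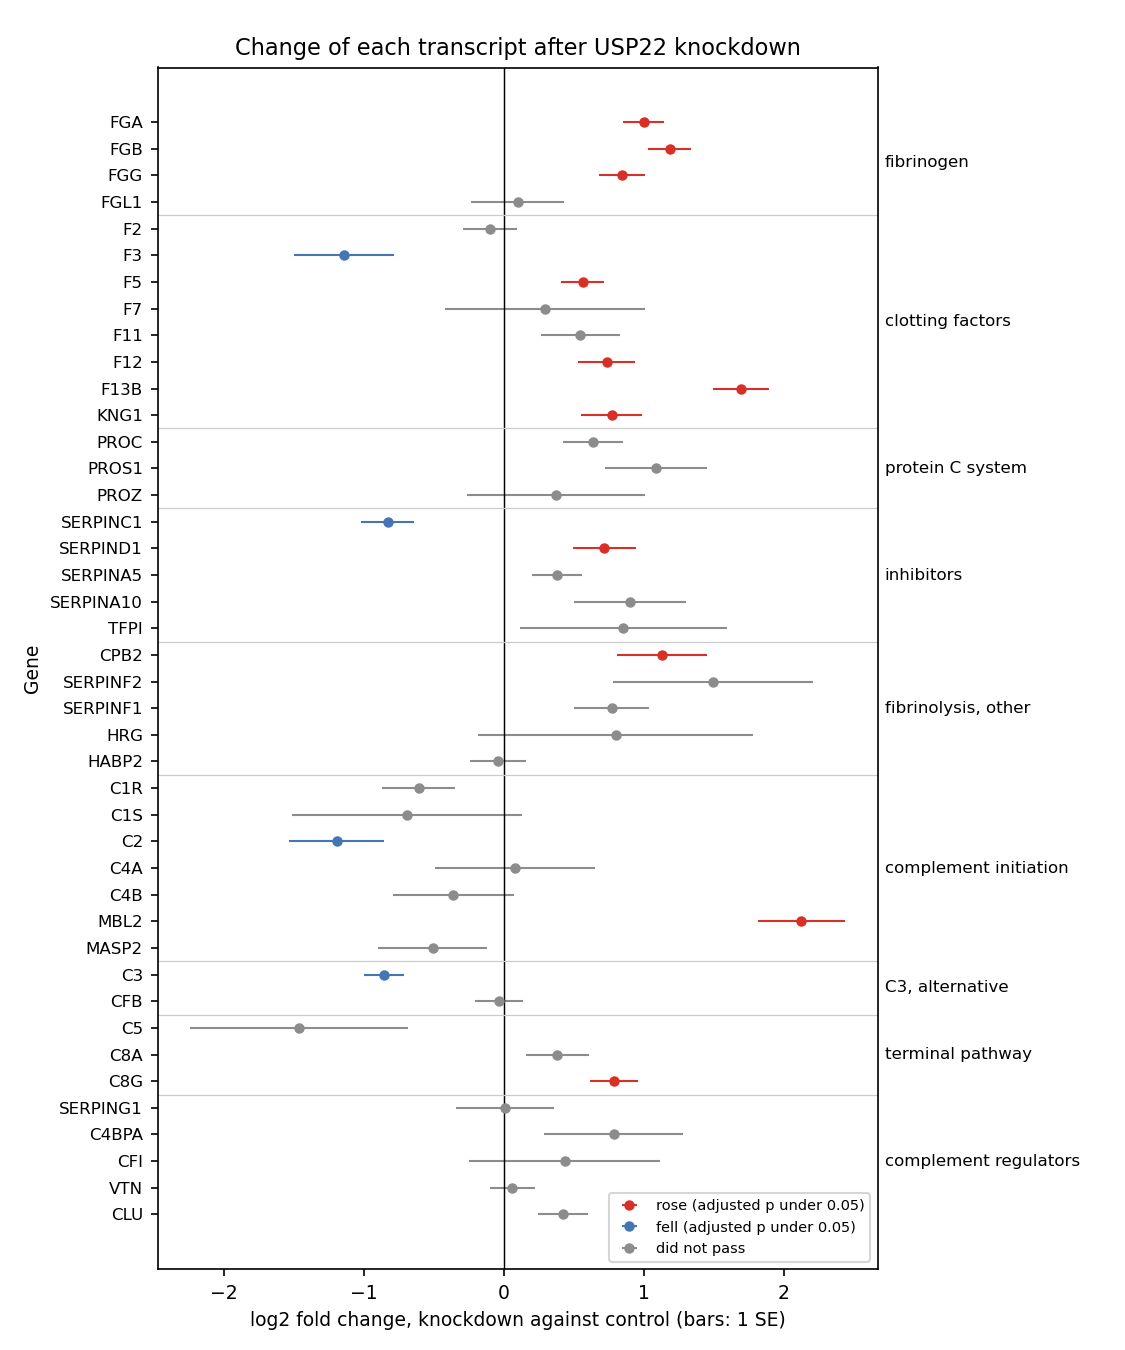
Log2 fold change of knockdown against control for each of the 42 tested transcripts, grouped by role, with bars of 1 SE; red rose, blue fell and grey did not pass. The 3 fibrinogen chains lie between 0.85 and 1.19, F13B at 1.70, MBL2 at 2.13 and C3 at -0.85.

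Levels of different genes were compared per kilobase of transcript, and only for the 15 tested genes with a single RefSeq mRNA accession. In this unit VTN was highest, with 1413 and 1657 CPM per kb in control and 1398 and 1806 in knockdown cells. C3 came next in control cells with 919 and 916 CPM per kb, far above F12 with 276 and 339.7 CPM per kb. In knockdown cells C3 had 468 and 549 CPM per kb and F12 had 393 and 632, so that these levels overlapped. C8G followed with 227 and 230.2 CPM per kb in control and 345 and 444 in knockdown cells. Of these 15 genes 5 rose, 1 fell and 9 did not pass, where 9.08% of all genes rose and 11.1% fell.

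The authors' deposited table gives 18 of the 42 transcripts a q-value under 0.05. Of the 15 that rose or fell here, 14 were among them with the same sign, F12 being the exception. PROC, PROS1, SERPINF1 and CLU had such a q-value without passing here.

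Other genes of the pathways, from a list of 50, had a row for 28 and a tested transcript for 22. Of these 22, 5 rose, 3 fell and 14 did not pass, where 9.08% of all genes rose and 11.1% fell. The median log2 fold change of the 22 was -0.07. ANXA2, an annexin that binds plasminogen at the cell surface, had 48.7 and 55.4 CPM against 18.8 and 19.7 CPM (-1.44 ± 0.21, adjusted p = 0.000539). FURIN, a protease that trims clotting factor precursors, rose from 11.6 and 11.1 to 25.6 and 32.5 CPM (1.36 ± 0.25, adjusted p = 0.00233). With all rows of FURIN summed, its log2 fold change was smaller (0.89, adjusted p = 0.0125). CPN1, the carboxypeptidase that inactivates C3a and C5a, rose from 44.9 and 45.3 to 75.0 and 79.2 CPM (0.77 ± 0.18, adjusted p = 0.0106). The CPN1 call was lost without control 1 or control 2 (adjusted p = 0.0755 and 0.0598, range 9.03e-05 to 0.0755).

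VKORC1, GAS6 and C5AR2 of this list also passed, with a mean under 10 CPM, and are named after their values were seen. VKORC1, which recycles the vitamin K that several clotting factors need, had 195, 165, 22 and 36 counts (-2.65 ± 0.37, adjusted p = 0.00033). GAS6 and C5AR2 rose from at most 34 and 10 counts in a control library to at least 58 and 34 in a knockdown library. Leaving out control 2 moved GAS6 from 1.79 to 2.64 and C5AR2 from 2.46 to 3.25. GAS6 lost its call without control 1 or knockdown 2 (adjusted p = 0.0943 and 0.17, range 0.000586 to 0.17). C5AR2 lost it without control 1 or knockdown 2 and with rows summed per gene (adjusted p = 0.077, 0.145 and 0.0658, range 0.00549 to 0.145).

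Of 13 liver transcription factors 11 were tested, of which 4 rose and 0 fell, against 9.08% and 11.1% of all genes. At an unadjusted p under 0.05 lay 7 of the 11, against 33.5% of all genes. FOXA1, which opens liver enhancers, had 42.4 and 47.5 CPM against 78.4 and 163 CPM (1.43 ± 0.27, adjusted p = 0.00312), and without knockdown 2 the log2 fold change was 0.81. FOXA1 was highest in knockdown 2, as were F12, FGA, PROC, C8G and others of the set, while FGB and FGG were not. A link between them was not tested. FOXA3 had 79.0 and 92.3 CPM against 122 and 141 CPM (0.62 ± 0.18, adjusted p = 0.0276). PROX1 had 8.33 and 11.7 CPM against 20.3 and 16.4 CPM (0.87 ± 0.28, adjusted p = 0.0447). Leaving out control 1 ended the calls of FOXA3 (adjusted p = 0.241, range 0.000497 to 0.241) and PROX1 (0.277, range 0.00549 to 0.277), as did control 2 or knockdown 2 for FOXA3 and knockdown 1 for PROX1. NR1H4, the bile acid receptor, named after its values were seen, had 0, 2, 11 and 18 counts. The call of NR1H4 (adjusted p = 0.0428) was lost without control 1 or knockdown 1, without the filter and in DESeq2 (up to 0.241, range 0.0219 to 0.241), so that no fold is given.

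CEBPD, an acute-phase factor and the only C/EBP gene read here, had 91.8, 82.2, 70.8 and 96.8 CPM with overlapping groups (-0.05 ± 0.20, adjusted p = 0.889). Of the interleukin-6 signal genes 3 of 7 were tested, and 1 fell and 0 rose, where 11.1% of all genes fell and 9.08% rose. SOCS3, a feedback inhibitor induced by STAT3, had 20.6 and 17.4 CPM against 6.74 and 6.87 CPM (-1.48 ± 0.27, adjusted p = 0.00246). IL6R, the interleukin-6 receptor, had 8.33 and 9.52 CPM against 15.2 and 15.3 CPM and did not pass (0.77 ± 0.27, adjusted p = 0.0642), though its groups did not overlap. The STAT3 row had 8.334, 11.01, 7.9997 and 8.327 CPM (-0.24 ± 0.30, adjusted p = 0.631). IL6R and STAT3 have 9 and 21 RefSeq accessions, so a single row may not give the level of the gene.

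Markers of other cells that make or carry these proteins summed to at most 35.9 CPM per list in a library, far under the hepatocyte sum. Some single hepatocyte markers also lay no higher than that. The endothelial list (3 of 6 with a row) summed to 11.6 to 17.9 CPM in control and 23.3 to 29.6 CPM in knockdown cells. The macrophage and blood list (2 of 6) summed to 32.0 to 35.9 CPM and 25.1 to 28.2 CPM. The stellate cell and fibroblast list (4 of 6) summed to 20.5 to 31.7 CPM and 19.0 to 23.8 CPM, with 1, 53, 0 and 0 counts of COL1A2. The megakaryocyte and platelet list (3 of 5) summed to 27.3 to 35.7 CPM and 15.3 to 18.3 CPM. In these 4 lists PECAM1 rose and PPBP and ITGA2B fell, and their part in the results was not tested.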

How the data were processed

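Fragmented mRNA was sequenced in 2 control and 2 USP22 knockdown libraries, and groups were taken from the sample titles. The authors deposited raw counts per RefSeq mRNA accession (14540 rows, none under 14 counts over the libraries). HISAT2 2.1.0, HTSeq, bcl2fastq and the build hg19 are named in the submitters' processing notes, without the counting settings. The same table holds the authors' log2 fold changes, p-values and q-values, whose tool was not stated there. Genes with several RefSeq accessions can have few counts per row, so a row is a transcript, not a gene. RefSeq accessions per gene (GRCh38.p14, a current table that may differ from the authors' annotation) matched 98.5% of rows, and GENCODE transcript lengths 95.9%.

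Rows were kept by filterByExpr (minimum count 10; 2203 removed) and normalized by TMM (factors 0.979 to 1.015). edgeR 4.0.16 in R 4.3.3 tested knockdown against control with no covariate, by the quasi-likelihood test with Benjamini-Hochberg adjustment over 12337 rows. The common biological coefficient of variation was 22.1%. SE is the log2 fold change divided by the square root of F. The fit was tested on simulated data with known changes. Alternatives were DESeq2 size factors, no filter, the replicate number as a block, each library left out, DESeq2 1.42.0, limma-voom (3.58.1) and rows summed per gene. Values of each library are printed for each gene of the set that passed or had a mean of at least 10 CPM. Of the other pathway genes and regulators, those that passed with that mean are named. Some genes of these lists enter the counts and are not reported here. The genes of the set and the lists were chosen with earlier results of these data known, so no list was tested as a set.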

Additional observations from a re-analysis of the deposited data

How the results depend on the processing

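Over 10 alternatives, FGA, FGB, FGG, F13B, MBL2, C8G and C3 (7 transcripts) stayed past the threshold, and 8 others that rose or fell lost the call in at least 1. Of 607 values of 61 transcripts under an alternative, 544 kept direction and side of the threshold, 32 lost the call, 13 gained it and 18 changed sign. Leaving out 1 library gave 6 to 12 transcripts of the set that rose and 1 to 3 that fell, and 685 to 1340 rows that rose over the whole table. A fit without a library has 1 library in an arm, which is assumed to vary like the other group. With all rows summed per gene, 14 of the set rose and 4 fell, and each of the 11 and 4 kept its call.

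The replicate number as a block gave 16 that rose and 5 that fell in the set, and 1672 and 1859 rows over the whole table. Same-numbered libraries deviated together with a correlation of 0.103 over 12337 rows. With 2 pairs this does not show that the numbers pair the samples, and the block leaves fewer degrees of freedom.

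All sign changes were of transcripts that did not pass, and came from leaving out 1 library. Over the leave-one-out fits the log2 fold change ran from -0.29 to 0.19 for CEBPD, -0.11 to 0.37 for FGL1, -0.22 to 0.058 for F2, -0.27 to 0.74 for F7, -0.030 to 0.72 for PROZ, -0.058 to 3.36 for HRG, -0.19 to 0.15 for HABP2, -0.45 to 0.97 for C4A, -0.78 to 0.27 for C4B, -0.91 to 0.092 for MASP2, -0.13 to 0.10 for CFB, -0.036 to 0.10 for SERPING1 and -0.13 to 0.27 for VTN. The cause of these changes was not tested. Counts under 50 in every library limit F7, PROZ, HRG and C4A.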
